A study of Drosophila melanogaster with 5 samples.

Results

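The accessible chromatin of Pros-depleted enteroendocrine cells (EEs) was set against that of esg+ progenitor cells of the adult Drosophila midgut, to see at which genes and positions cells that lose EE identity match progenitors and at which they still differ. One ATAC-seq library of each population was examined, 2 of the 5 libraries of the series. The peak lists of mature EEs and of enterocytes (ECs) served as a guide to where a difference came from. Progenitors came from esg-Gal4ts, UAS-GFP flies and Pros-depleted EEs from prosV1-Gal4ts, UAS-GFP>UAS-pros-RNAi flies. Mature EEs carried prosV1-Gal4ts and UAS-GFP without the RNAi transgene, and ECs carried Myo1A-Gal4ts and UAS-GFP. All 4 groups thus held UAS-GFP and the temperature-sensitive repressor tubP-GAL80ts, and none was without a GAL4 driver. Per the methods, the flies were females aged 5 to 7 days whose driver had been switched on at 29 °C over 7 days. Each sample held about 40000 sorted cells with GFP, out of 100 to 150 guts. The gate follows prosV1-GAL4 in one library and esg-GAL4 in the other, so the Pros-depleted library holds every cell with driver activity, whether or not it had left the EE state. The peaks of the progenitor list are named "5w", those of the Pros-depleted and the mature EE list "rep2" and those of the EC list "rep1", which is not explained in the sources used here. A further difference between these samples, such as fly age, therefore cannot be told apart from the cell type. If the names mark a run or batch, the Pros-depleted and the mature EE library share one that progenitors lack, which cannot be told apart from the likeness of these 2 libraries in the values that follow. Fewer cells of a type and less open chromatin per cell cannot be told apart either in such bulk samples.

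In the midgut, intestinal stem cells and their daughters, the enteroblasts, express the Snail-family repressor esg, which keeps them undifferentiated. Stem cells present the ligand Delta (Dl) and enteroblasts read it through Notch. EEs secrete peptide hormones and depend on the homeodomain factor Prospero (Pros), and ECs digest and absorb food. In ATAC-seq, the transposase Tn5 inserts adapters into open chromatin, and peaks mark where fragments pile up over the local background.

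Overlapping or touching peaks of the progenitor list and the Pros-depleted list on the 6 arms of chromosomes 2, 3, 4 and X made 10877 merged regions. Of these, 6626 had a peak in both libraries, 2566 in progenitors only and 1685 in Pros-depleted EEs only. Peaks were ranked by fold enrichment within their own list on a scale from 0 to 100 percentile points, and a region takes the rank of its strongest peak. Ranks were used because the libraries differ in depth. A region in both lists is called matched where the ranks differ by at most 10 points, and shifted where they differ by at least 30 points. With 1 library per population no test was possible, and none was made. Shares carry 95% Wilson intervals that cover counting error only.

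The summit sequences of regions that carry the main patterns are shown first, each on the plus strand of the BDGP6 reference with 50 bp to either side of the summit. Capitals mark matches to the motif words described further on, apart from the GAGA word. The first 3 regions had a peak in progenitors and none in Pros-depleted EEs. They are the leading region, nearest to CG31804 (2L:17356101-17356201), the wg promoter (2L:7306921-7307021) and the mira promoter (3R:19935080-19935180).
CG31804: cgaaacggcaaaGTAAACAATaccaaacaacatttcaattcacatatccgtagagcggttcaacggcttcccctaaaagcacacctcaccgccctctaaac
wg: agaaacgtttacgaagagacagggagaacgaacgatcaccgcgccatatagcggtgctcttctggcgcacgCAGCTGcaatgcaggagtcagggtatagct
mira: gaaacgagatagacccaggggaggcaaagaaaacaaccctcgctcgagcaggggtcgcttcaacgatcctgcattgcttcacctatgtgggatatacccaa
The next 4 were found in Pros-depleted EEs only or ranked far higher there. They lie at a start site of Ten-a (X:12128189-12128289), at the CCHa1 promoter (3R:14096954-14097054), downstream of esg (2L:15339712-15339812) and in an intron of flw (X:10397650-10397750), the last without a peak in mature EEs.
Ten-a: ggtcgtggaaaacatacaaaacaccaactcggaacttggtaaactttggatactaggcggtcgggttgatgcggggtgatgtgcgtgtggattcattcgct
CCHa1: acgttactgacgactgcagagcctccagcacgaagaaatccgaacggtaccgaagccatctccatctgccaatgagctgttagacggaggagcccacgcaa
esg: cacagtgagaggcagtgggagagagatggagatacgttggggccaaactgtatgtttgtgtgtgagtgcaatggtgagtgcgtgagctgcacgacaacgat
flw: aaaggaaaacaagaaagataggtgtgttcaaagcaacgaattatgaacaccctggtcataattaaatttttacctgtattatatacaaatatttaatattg
The last pair was found in both libraries at nearly equal rank. H15 (2L:5403675-5403775) was open in all 4 cell populations, and heca (3R:30352817-30352917) in progenitors, Pros-depleted EEs and ECs but not in mature EEs. The regions of wg, mira, esg, CCHa1 and heca were chosen for display after their values were seen.
H15: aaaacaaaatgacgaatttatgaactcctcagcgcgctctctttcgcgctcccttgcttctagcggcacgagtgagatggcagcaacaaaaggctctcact
heca: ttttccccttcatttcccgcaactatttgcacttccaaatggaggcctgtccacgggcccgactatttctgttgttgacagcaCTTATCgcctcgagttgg

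Most of the chromatin that was open after Pros depletion was open in progenitors too. Of the 8466 Pros-depleted peaks, 80.1% (79.2 to 80.9) overlapped a progenitor peak, and of the 9311 progenitor peaks, 72.4% (71.5 to 73.3) overlapped a Pros-depleted peak. The shared regions made up 60.9% (60.0 to 61.8) of all merged regions. They were mostly common to the midgut: 87.9% (87.1 to 88.7) of them also had a peak in mature EEs and 75.4% (74.3 to 76.4) in both EEs and ECs. Regions with a peak in Pros-depleted EEs only were mostly open in mature EEs, their cell of origin, with an EE peak in 59.6% (57.3 to 62.0) and an EC peak in 13.4% (11.9 to 15.1). Regions with a peak in progenitors only had the reverse make-up, with an EE peak in 23.4% (21.8 to 25.1) and an EC peak in 47.1% (45.2 to 49.1). No peak in either mature cell type was found at 39.3% (37.4 to 41.2) of the latter and at 34.1% (31.9 to 36.4) of the former. Among shared regions, 84.0% (83.1 to 84.9) had an EC peak and 3.43% (3.01 to 3.89) had neither. The EE and EC shares of unshared regions thus all lay below those of shared regions. An EE peak without an EC peak was at 52.5% of Pros-depleted-only, 13.6% of progenitor-only and 12.5% of shared regions. An EC peak without an EE peak was at 37.3% of progenitor-only, 6.23% of Pros-depleted-only and 8.63% of shared regions.

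**Figure D1:**
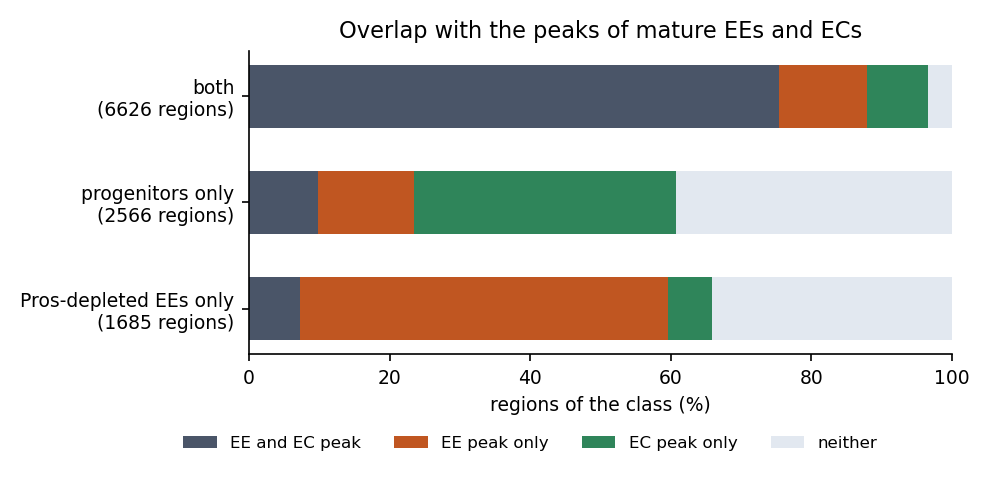
Share of merged regions (%) that also overlap a peak of mature EEs, of ECs, of both or of neither, for regions in both libraries, in progenitors only and in Pros-depleted EEs only. The EE-only part fills 52.5% of the Pros-depleted-only bar and 13.6% of the progenitor-only bar, while the EC-only part fills 6.23% and 37.3%.

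The lists differ in depth. By inverting the MACS score, the lowest background came to 12.4 fragments in progenitors and 7.75 in Pros-depleted EEs, and summits held a median of 103 and 52 fragments. Weak peaks were found less completely than strong ones in both directions. From the weakest to the strongest 10% of a list, the share found in the other library went from 37.5% (34.4 to 40.6) to 93.6% (91.8 to 94.97) for progenitor peaks and from 52.2% (48.9 to 55.6) to 96.8% (95.4 to 97.8) for Pros-depleted peaks. At the weak end a missing peak does not show closed chromatin. In the strongest 10%, 60 of 932 progenitor peaks were not found after Pros depletion, and mature EEs had a peak at 6 of these. Of the strongest 10% of the Pros-depleted list, 27 of 847 peaks were not found in progenitors, and mature EEs had a peak at 24.

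**Figure D2:**
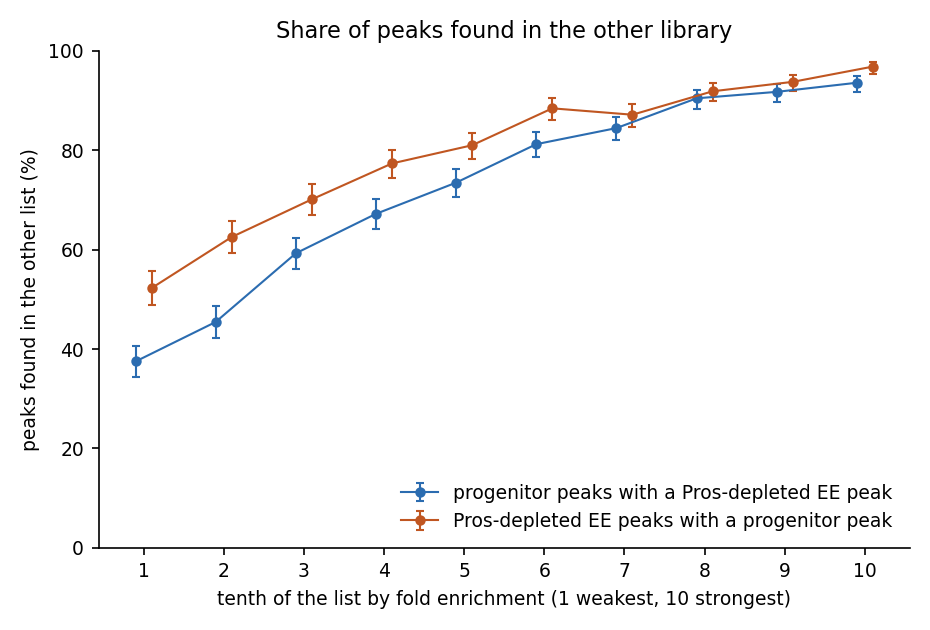
Share of peaks (%) with an overlapping peak in the other library, in 10 classes from the weakest fold enrichment (1) to the strongest (10), with 95% Wilson intervals as bars. The progenitor curve runs from 37.5% to 93.6% and the Pros-depleted curve from 52.2% to 96.8%.

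Promoters were shared more often than distal sites. Of the 5371 regions with a summit within 500 bp of a transcription start site (TSS), 74.5% (73.3 to 75.6) had a peak in both libraries. This share was 47.7% (46.4 to 49.0) for the 5506 regions farther away. The Pros-depleted-only regions lay in introns in 52.5% (50.1 to 54.8) of cases and over coding exons in 13.1% (11.5 to 14.7). For progenitor-only regions the coding exon share was 6.16% (5.29 to 7.15), and for shared regions it was 3.49% (3.07 to 3.96).

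Over the 6626 shared regions, Pearson's r of the ranks was 0.61, with 0.67 over the TSS-proximal and 0.52 over the distal ones. These are descriptions across regions, which share libraries and are no replicates. The ranks were matched at 2794 regions, which is 42.2% of the shared regions. They were at least 30 points higher in Pros-depleted EEs at 577 regions (8.71%) and at least 30 points higher in progenitors at 710 (10.7%). Mature EEs had a peak at 5827 of the shared regions. Over these, r was 0.63 between Pros-depleted EEs and progenitors, 0.74 between Pros-depleted EEs and mature EEs, and 0.50 between progenitors and mature EEs. The Pros-depleted rank lay nearer to the progenitor rank than to the EE rank at 43.5% (42.3 to 44.8) of them. Mature EEs were also nearer to Pros-depleted EEs in depth, with a median of 65 fragments at summits. Pros-depleted EEs had 52 and progenitors 103. The part of depth in these values was not tested.

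**Figure D3:**
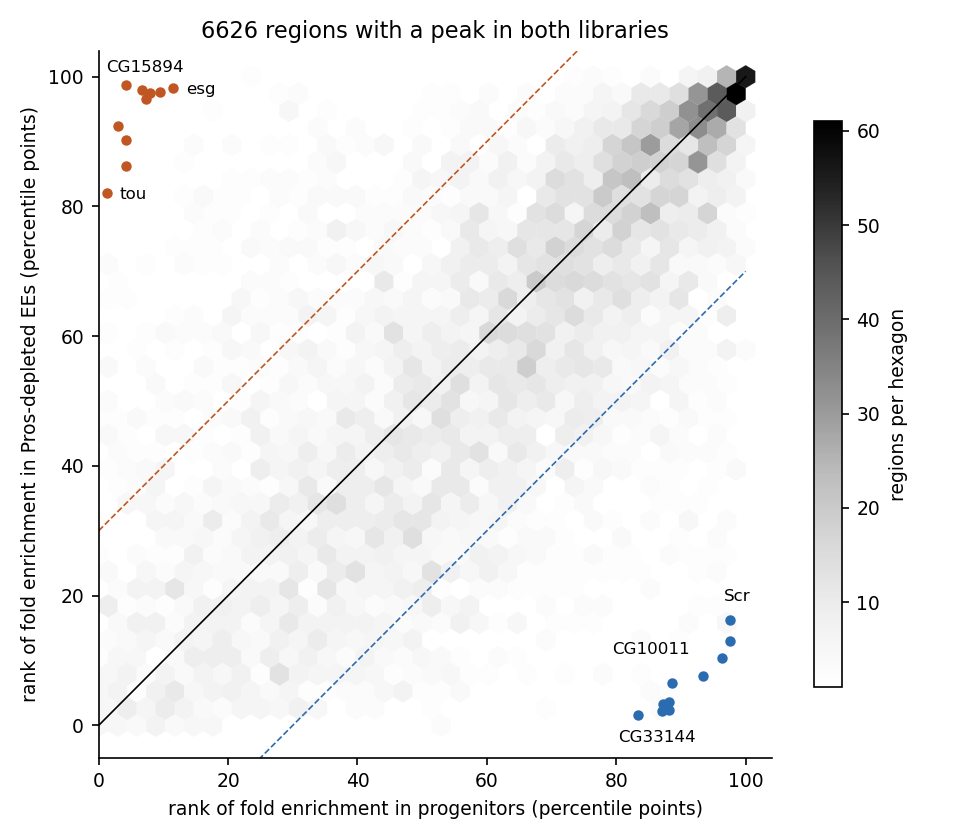
Percentile rank of fold enrichment in progenitors (x axis) and in Pros-depleted EEs (y axis) for the 6626 regions with a peak in both, as hexagons shaded by the number of regions. The solid line marks equal rank and the dashed lines a difference of 30 points. Orange and blue points are the 10 regions with the largest difference in each direction, such as esg at 11.5 against 98.3 points and Scr at 97.6 against 16.2 points.

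The regions that matched best, those with the highest lower rank of the pair, lay mostly at genes for developmental transcription factors. Among the leaders were H15, sr, opa, hth, unc-4, en, CG9932, btd and L. H15 is a T-box gene, hth and en are homeobox genes, and opa is a zinc finger gene of the Zic family. These 9 ranked between 99.7 and 99.99 points in both lists, and all 9 had a peak in mature EEs and in ECs as well, so these matches are not particular to progenitors. At en (2R:11527851-11528512, 5' UTR), the fold enrichment was 17.7 in progenitors, 12.03 in Pros-depleted EEs, 13.6 in mature EEs and 8.86 in ECs.

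Matches that mature EEs lacked were fewer. Of the shared regions, 799 had no EE peak, and 572 of these had an EC peak. Promoter-proximal summits made up 32.4% (29.3 to 35.7) of them, against 64.2% (62.9 to 65.4) of the shared regions with an EE peak. The leading examples, which were chosen after their values were seen, were an intron of heca (3R:30352557-30353394), which ranked at 99.5 points in progenitors and 97.7 in Pros-depleted EEs, and a start site of promL, at 94.1 and 93.5 points. An intron of trol, the perlecan gene of the basement membrane, ranked at 94.7 and 91.5 points. In ECs these regions ranked at 96.5, 95.7 and 91.5 points.

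The strongest regions of progenitors without a Pros-depleted peak lay near CG31804, knrl, for, Cad86C, sals, CG13578, AdamTS-A, wg, CG4839 and CG43341. Their fold enrichment in progenitors ran from 13.5 to 17.5, or from 97.6 to 99.7 points. Each of the 10 also had an EC peak, at ranks from 80.2 to 99.8 points, and 4 had an EE peak. The leader (2L:17355866-17356444) was intergenic, 7345 bp upstream of CG31804, with a fold of 17.5 in progenitors and 10.8 in ECs and no peak in either EE library. At wg, the Wnt ligand, the region lay 188 bp upstream of a TSS (2L:7306844-7307237) and ranked at 97.9 points in progenitors and 89.6 in ECs. The region of for, the cGMP-dependent protein kinase gene, sat 94 bp from a start site, at 99.2 points in progenitors and 95.8 in ECs. Of the 4 regions with an EE peak, that of AdamTS-A, a secreted metalloprotease gene, ranked at 98.1 points in progenitors and 72.1 in mature EEs. At Cad86C, a cadherin gene, these values were 99.1 and 17.8 points, and at sals 98.4 and 14.2. The region assigned to CG13578 lay in an intron of bs, which encodes the serum response factor.

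The strongest regions of Pros-depleted EEs without a progenitor peak lay near Ten-a, flw, mbl, sbm, CG15803, Meltrin, Trs23, Syn, Cyp9h1 and CG32085, with folds from 8.35 to 12.2. Mature EEs had a peak at 8 of the 10, and ECs at 1. At Ten-a, a teneurin gene of neuronal adhesion (X:12127862-12128696), the fold was 12.2 in Pros-depleted EEs and 14.7 in mature EEs, or 99.8 and 99.96 points. At Syn, which encodes the vesicle protein synapsin (3R:10189861-10191300), the ranks were 95.7 and 93.5 points. At mbl, a regulator of splicing, they were 98.4 and 97.8 points. The region counted under Trs23 lay over coding exons of Hnf4, at 96.0 points in Pros-depleted EEs and 96.3 in mature EEs.

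A smaller set was found in Pros-depleted EEs and in neither progenitors nor mature EEs. It counted 680 regions, of which 105 had an EC peak and 575 had none. They were mostly weak, where a missing peak does not show closed chromatin. In the weakest 10% of the Pros-depleted list, 404 peaks were not found in progenitors, and mature EEs had a peak at 146 of these. In the strongest 10%, these counts were 27 and 24. The 5 leaders lay near flw, a protein phosphatase 1 catalytic subunit gene, Meltrin, an ADAM metalloprotease gene, CG4839, btsz and PKD. The intron of flw (X:10397369-10398117) ranked at 98.7 points and that of Meltrin (3R:14680318-14680830) at 96.5. The regions of btsz and PKD ranked at 82.2 and 81.3 points. At CG4839 the libraries used neighbouring sites. The region 1150 bp upstream of the start site had a fold of 13.6 in progenitors, 4.95 in mature EEs and no peak after Pros depletion. The region over the start site, with its summit 27 bp upstream (2L:10144540-10144969), had a fold of 7.18 in Pros-depleted EEs and no peak in the other 3 populations.

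Among shared regions, those that ranked much higher in Pros-depleted EEs stood near the rank they had in mature EEs. The 532 of the 577 shifted regions that had an EE peak ranked at a median of 26.0 points in progenitors, 76.1 in Pros-depleted EEs and 72.8 in mature EEs. The largest differences were at CG15894, Mrtf, CG42249, Hs3st-A, Pkn, CG42458, esg, cpb, CG13032 and tou. CG15894 (X:6317113-6317815) ranked at 4.17 points in progenitors, 98.7 in Pros-depleted EEs and 98.5 in mature EEs, with no EC peak. Mrtf, a coactivator of the serum response factor, had its region over the 5' UTR, at 6.63, 97.9 and 87.0 points. The region counted under cpb lay in an intron of chinmo, a BTB factor gene, and ranked at 4.17 points in progenitors, 90.3 in Pros-depleted EEs and 49.2 in mature EEs.

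In the other direction, the 469 of the 710 regions that ranked at least 30 points higher in progenitors and had an EE peak stood at a median of 74.5 points in progenitors, 27.6 in Pros-depleted EEs and 38.5 in mature EEs. An EC peak was present at 92.0% (89.7 to 93.8) of all 710, against 60.3% (56.3 to 64.2) of the 577. The largest differences were at fus, Pde8, CG10011, CG30089, m-cup, Plp, IP3K2, how, CG33144 and Scr. At fus, an RNA-binding splicing regulator (2R:15664268-15665347), the ranks were 96.4 points in progenitors, 10.5 in Pros-depleted EEs and 97.6 in ECs, with no EE peak. At the Hox gene Scr (3R:6848564-6849007), they were 97.6 in progenitors, 16.2 in Pros-depleted EEs, 49.2 in mature EEs and 91.1 in ECs. At how, an RNA-binding protein gene that is also active in muscle, they were 88.6 and 6.59 points, with no EE peak and 91.0 points in ECs.

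Progenitor genes were largely open after Pros depletion. A locus was taken as the gene body with 3 kb to each side. Of the 6 progenitor markers (esg, Dl, Sox100B, Sox21a, fkh, klu), all 6 had a shared region, and at 3 (esg, Dl, fkh) every region was shared. Over all 13945 protein-coding genes, 73.8% had a region, 62.8% had a shared region, 36.9% had regions and shared all of them, 26% had a progenitor-only region and 16.7% a Pros-depleted-only region. The markers are longer than genes at large (median 11396.5 bp against 2166 bp). Of the 14 shared regions at these markers, 10 were matched, 0 stood at least 30 points higher in Pros-depleted EEs and 2 at least 30 points higher in progenitors. Mature EEs had a peak at 11 of the 14 and ECs at 13, so most were not particular to Pros depletion. The esg promoter (2L:15333388-15334189, summit 131 bp upstream of the TSS) ranked at 90.3 points in progenitors, 99.7 in Pros-depleted EEs, 99.6 in mature EEs and 99.7 in ECs. It was thus open in all 4 populations. The region 5896 bp downstream of the same TSS (2L:15339543-15340100, intergenic and outside the locus window) behaved otherwise. There the ranks were 11.5 in progenitors, 98.3 in Pros-depleted EEs and 99.6 in mature EEs, with no EC peak, and the folds were 2.55, 9.80 and 12.7.

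At Dl, a region inside the gene (3R:19321771-19322316, intron, 4160 bp from the TSS) was open in Pros-depleted EEs without a peak in mature EEs. It ranked at 82.7 points in progenitors, 23.0 in Pros-depleted EEs and 78.9 in ECs. The Dl promoter region stood at 57.2 points in progenitors, 60.5 in Pros-depleted EEs and 35.4 in mature EEs. Sox100B, a SoxE factor gene of progenitors, had 4 peaks within its window in progenitors, 3 in Pros-depleted EEs, 1 in mature EEs and 4 in ECs. The window edge affects these counts. An upstream progenitor peak that reached into the window (64.8 points) overlapped a mature EE peak that ended outside it (67.6 points). The intronic region of Sox100B (3R:31066618-31068384) ranked at 85.5 points in progenitors, 89.3 in Pros-depleted EEs and 24.2 in mature EEs. At klu, a zinc finger factor gene of enteroblasts, the promoter was matched at 89.2 and 95.5 points. The intronic region 19.7 kb into klu (3L:10988751-10990088) ranked at 92.0 points in progenitors and 86.6 in ECs, against 16.2 in Pros-depleted EEs and no peak in mature EEs. Sox21a, a SoxB factor gene, shared 2 regions and had a progenitor-only region 177 bp upstream of a TSS, at 18.5 points.

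The targeted gene pros had 7 peaks in progenitors, 12 in Pros-depleted EEs and 11 in mature EEs. RNAi acts on the transcript, so peaks do not check the depletion, and which RNAi line was used and which stretch of pros it holds is not given in the sources used here. At the locus, 6 regions were shared, 6 were found in Pros-depleted EEs only and 1 in progenitors only. Progenitors and mature EEs lacked the RNAi transgene, so fragments from its copy of pros sequence cannot be told apart from those of the gene where the 2 are the same. Of the 6 Pros-depleted-only regions, 2 had an EE peak and 0 an EC peak. An intronic region (3R:11353005-11353877) ranked at 95.4 points in progenitors, 90.4 in Pros-depleted EEs, 92.5 in ECs and 23.7 in mature EEs. Another intronic region (3R:11366581-11368103) ranked at 1.58 points in progenitors, 37.0 in Pros-depleted EEs and 69.9 in mature EEs. Within 1 gene, a site thus stood near its progenitor rank and another between the progenitor and the EE rank.

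**Figure D4:**
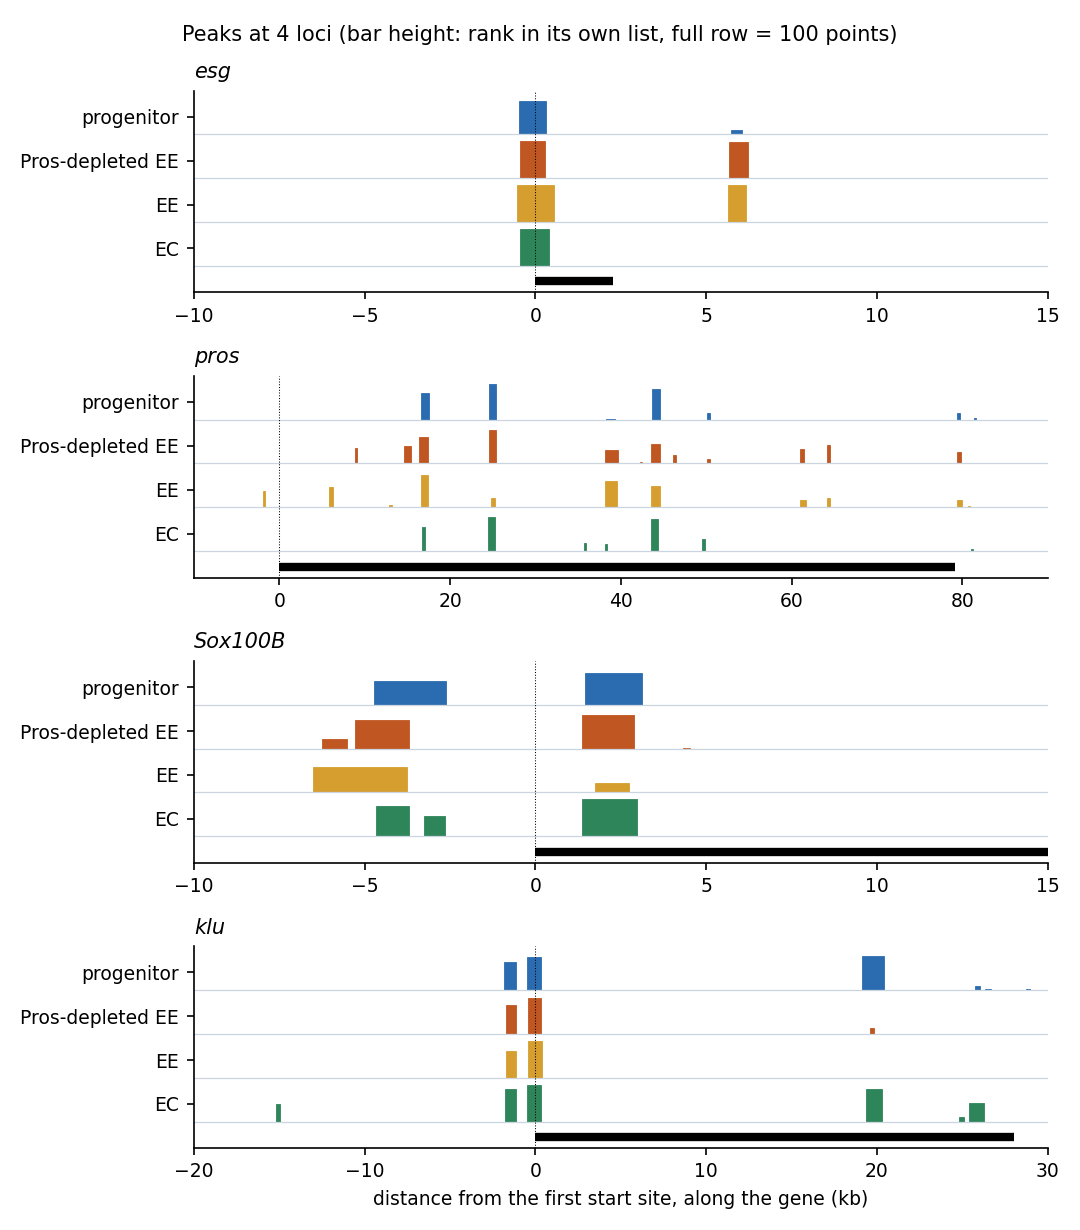
Peaks of progenitors, Pros-depleted EEs, mature EEs and ECs at esg, pros, Sox100B and klu, by distance from the first start site along the gene (kb), with the gene body as a black bar (at Sox100B it runs on past the right edge). Bar height is the rank of the peak in its own list. The esg panel shows the region 5.9 kb downstream at 11.5, 98.3 and 99.6 points, and the klu panel the intronic region at 92.0 against 16.2 points.

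Of 15 transcription factor genes with roles in progenitors, 14 had a shared region, 10 a progenitor-only region and 8 a Pros-depleted-only region. The shares are 93.3%, 66.7% and 53.3%, against 62.8%, 26% and 16.7% of all genes. These 15 are long genes (median length 16989 bp against 2166 bp over all genes), which gives more room for regions of each kind. Their shared regions were matched in 28 of 45 cases. GATAd, a GATA factor gene, ranked at 99.0 and 97.3 points at its main region. At Myc, the growth regulator, 2 regions were shared, 4 were found in progenitors only and 2 in Pros-depleted EEs only. The best rank at the locus was 49.3 points in progenitors and 85.9 in Pros-depleted EEs. Sites near the start differed between the libraries. The region 42 bp upstream of a TSS (X:3372878-3373285) had a progenitor and an EC peak, at 46.5 and 47.9 points. The regions 1797 and 2390 bp upstream had Pros-depleted peaks at 18.1 and 64.2 points, with an EE peak over both at 67.2 points. At Stat92E, the JAK-STAT transcription factor gene, an intronic region (3R:20541782-20542774) ranked at 87.7 points in progenitors, 15.5 in mature EEs and 87.6 in ECs, without a Pros-depleted peak. The study's own list of progenitor genes, of which 208 were held here and 178 matched the annotation, had a shared region at 154 genes, a progenitor-only region at 97 and a Pros-depleted-only region at 52. These are 86.5%, 54.5% and 29.2% of the matched genes, which too were long (median 10014 bp). The study chose the list for progenitor identity, and it is no independent evidence.

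Cell cycle loci were largely shared, although their ranks were often lower than in progenitors. All 28 genes of the list had a shared region, and at 16 (57.1%) every region was shared, against 62.8% and 36.9% of all genes. There were 8 (28.6%) with a progenitor-only and 6 (21.4%) with a Pros-depleted-only region, against 26% and 16.7% of all genes. The promoter region of the cyclin gene CycB3 ranked at 65.8 points in progenitors, 59.6 in Pros-depleted EEs and 25.2 in mature EEs. At CycD the ranks were 87.0, 73.2 and 26.1 points. The first intron of CycE (2L:15745152-15746368) stood at 78.1 points in progenitors and 34.8 in Pros-depleted EEs, close to the 32.5 of mature EEs. The mitotic activator stg had its promoter region at 67.4 points in progenitors, 35.1 in Pros-depleted EEs and 84.2 in ECs, and no peak there in mature EEs. PCNA, the replication clamp gene, had a progenitor-only region over its TSS at 21.6 points and a shared region 1026 bp upstream of it, next to RpS18, at 59.0 and 23.9 points, and mature EEs had neither. Of the 52 shared regions of the list, 19 were matched, 3 stood at least 30 points higher in Pros-depleted EEs and 9 at least 30 points higher in progenitors. The median rank difference (Pros-depleted minus progenitor) was -9.08 points, against -2.11 over all shared regions.

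Of 23 Notch pathway genes, 19 had a shared region, 8 a progenitor-only and 3 a Pros-depleted-only region. These are 82.6%, 34.8% and 13.04% of the list, against 62.8%, 26% and 16.7% of all genes. Some neighbouring genes count the same region, such as the Pros-depleted-only region of E(spl)mdelta-HLH and E(spl)mgamma-HLH. Counted by gene, there were 39 shared, 11 progenitor-only and 4 Pros-depleted-only regions, of which 33, 10 and 3 were distinct. At the receptor gene N, 3 of the 7 regions were found in progenitors only. The intronic region 11929 bp into the gene (X:3146477-3147333) ranked at 86.7 points in progenitors and 85.2 in ECs and had no peak in either EE library. The promoter of N stood at 74.9 points in progenitors, 49.1 in Pros-depleted EEs and 26.1 in mature EEs. The intronic region 1989 bp downstream of it stood at 91.0, 40.8 and 17.8 points, so at both sites the Pros-depleted rank lay between those of progenitors and mature EEs.

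Among 35 genes of mitogenic signalling, 32 had a shared region, 20 a progenitor-only and 14 a Pros-depleted-only region. These are 91.4%, 57.1% and 40% of the list, against 62.8%, 26% and 16.7% of all genes. The median length was 13743 bp against 2166 bp over all genes. The gene aos, a secreted inhibitor of the EGF receptor, was the single member with regions in progenitors and none after Pros depletion. Its promoter region (3L:16482984-16483920) ranked at 86.0 points in progenitors and 89.6 in ECs. Loci with a region in progenitors and none in Pros-depleted EEs made up 6.22% of all loci. At the receptor gene Egfr, by contrast, the promoter was open in all 4 populations, at 73.8 points in progenitors and 83.1 in Pros-depleted EEs. The intronic region 1827 bp downstream of an inner TSS stood at 74.3 and 97.4 points.

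Of 12 neuroblast genes, whose products act in neural stem cells, 9 had a shared region (75%, against 62.8% of all genes). A progenitor-only region was found at 5 (41.7%, against 26%) and a Pros-depleted-only region at 6 (50%, against 16.7%). Their 9 progenitor-only and 11 Pros-depleted-only regions thus did not lean towards progenitors. The median length was 7641.5 bp against 2166 bp over all genes. The bHLH repressor gene dpn and the adaptor gene mira, whose product carries Pros in dividing neuroblasts, had progenitor-only regions. The dpn promoter region (2R:8232239-8232610) ranked at 35.9 points in progenitors and 54.0 in ECs. The mira promoter region (3R:19934913-19935833) ranked at 75.1 points in progenitors and 79.9 in ECs. Neither had a peak in Pros-depleted or mature EEs. At wor, a Snail-family gene like esg, the promoter was shared at 91.6 points in progenitors and 40.3 in Pros-depleted EEs, with 84.2 in ECs and no EE peak.

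Genes of adhesion and matrix all had a shared region (14 of 14), but 9 had progenitor-only regions as well, and 7 Pros-depleted-only ones. They were long, with a median of 34522 bp against 2166 bp over all genes, of which 62.8% had a shared, 26% a progenitor-only and 16.7% a Pros-depleted-only region. Of the 23 progenitor-only regions, 1 had an EE peak and 17 an EC peak. At wb, a laminin gene, an intronic region (2L:14273406-14274710) ranked at 92.2 points in progenitors and 92.0 in ECs, without a peak in either EE library, while the start site was shared at 91.4 and 46.8 points. At ed, a cell adhesion gene, an intronic region (2L:4085871-4086640) ranked at 80.6 points in progenitors and 77.5 in ECs, again without a peak in either EE library.

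Hormone loci were shared less often than genes at large. Of 13 genes for EE hormones, 4 had a shared region and 0 shared all of their regions. These are 30.8% and 0%, against 62.8% and 36.9% of all genes. A progenitor-only region was found at 5 (38.5%, against 26% of all genes) and a Pros-depleted-only region at 7 (53.8%, against 16.7%). Their 7 progenitor-only regions included 2 each at NPF and ITP, and 3 of the 7 had an EE peak. Of their 10 Pros-depleted-only regions, 8 had an EE peak. AstC, CCHa2, Dh31 and sNPF had regions in Pros-depleted EEs and none in progenitors, as did 3.59% of all loci. At AstC (2L:11082134-11082526, 886 bp upstream of the TSS), the rank was 62.7 points in Pros-depleted EEs and 89.3 in mature EEs. At the CCHa1 promoter (3R:14096794-14097134), it was 85.6 points in Pros-depleted EEs and 50.3 in mature EEs. At sNPF, it was 13.01 against 92.0 points, so this EE promoter was open far down the Pros-depleted list. The NPF promoter (3R:16608854-16609763) was shared, with 3.01 points in progenitors, 69.8 in Pros-depleted EEs and 84.6 in mature EEs. The Tk locus had a progenitor peak at 20.6 points, 11998 bp downstream of the Tk TSS and nearer to mfas, and none after Pros depletion. AstA and Nplp2 had no region and no EE peak, and Mip had 2 EE peaks and 1 EC peak but none in progenitors or Pros-depleted EEs.

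Genes of the machinery that stores and releases hormones were longer, with a median of 18816 bp against 4720 bp for the hormone genes. Of 16 such genes, all 16 had a region, 12 a shared one, 7 a progenitor-only and 8 a Pros-depleted-only region. Shared, progenitor-only and Pros-depleted-only regions were thus at 75%, 43.75% and 50% of them, against 62.8%, 26% and 16.7% of all genes. Of the 14 Pros-depleted-only regions, 11 had an EE peak. The promoter of Rim, a scaffold of vesicle release (3R:17916329-17916956), ranked at 59.5 points in Pros-depleted EEs and 73.0 in mature EEs. That of Pal2, which acts in peptide amidation (2R:23687702-23688465), ranked at 65.4 and 63.1 points. That of 7B2, the partner of the Amon convertase, ranked at 36.9 and 65.7 points. None of the 3 had a progenitor or EC peak. At nSyb, a vesicle SNARE gene, the region nearest to its start site was shared at 15.1 points in progenitors, 52.7 in Pros-depleted EEs and 71.8 in mature EEs. Neuronal markers, of which brp is on both lists, had 7 peaks in progenitors, 9 in Pros-depleted EEs, 11 in mature EEs and 7 in ECs over 6 genes. Of these, elav had 2 peaks in each of the first 3 libraries and 1 in ECs, and fne and Rdl had none in progenitors or Pros-depleted EEs. Their part in the EE secretion result was not tested.

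Of 13 factor genes of the EE lineage, 8 had a shared region, 5 a progenitor-only and 6 a Pros-depleted-only region. The shares are 61.5%, 38.5% and 46.2%, against 62.8%, 26% and 16.7% of all genes. Their median length was 8363 bp against 2166 bp over all genes. The proneural gene sc (X:395668-396485) ranked at 86.1 points in progenitors, 35.5 in Pros-depleted EEs and 88.2 in ECs, with no EE peak. The gene phyl, whose product marks Ttk for degradation, had a progenitor-only intronic region (2R:14429614-14430309) at 85.8 points, with 78.2 in ECs and no peak in either EE library. The bHLH gene tap had a Pros-depleted-only promoter region at 35.5 points, against 73.3 in mature EEs and 33.0 in ECs. At scrt, a Snail-related gene, a region in the 3' UTR (3L:3988600-3989144) ranked at 15.1 points in progenitors and 90.9 in Pros-depleted EEs, with no EE or EC peak.

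Of 23 EC genes, 10 had a shared region, 7 a progenitor-only and 12 a Pros-depleted-only region. These are 43.5%, 30.4% and 52.2% of the list, against 62.8%, 26% and 16.7% of all loci. The trypsin genes alphaTry, betaTry and thetaTry lie within 3 kb of 1 shared neighbourhood and count the same Pros-depleted-only region (2R:11344649-11345282, over the alphaTry TSS), at 46.1 points, with 24.2 in ECs and no EE peak. Of the 13 distinct Pros-depleted-only regions at EC genes, 9 had an EE peak and 2 an EC peak. The amylase gene Amy-p was shared at 85.4 and 53.2 points, and nub, the gene of the EC factor Pdm1, had 4 shared regions and 1 found in Pros-depleted EEs only. Hnf4 had 4 shared, 6 progenitor-only and 3 Pros-depleted-only regions.

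Factors of gut regions and body axis differed mostly in one direction. Of 13 genes, 9 (69.2%) had a progenitor-only region and 1 (7.69%) a Pros-depleted-only region, against 26% and 16.7% of all genes. These genes are long (median 17164 bp against 2166 bp over all genes). Among them, abd-A, Gsc and ems had a peak in progenitors and none after Pros depletion. The ems promoter (3R:13901571-13901834) ranked at 86.6 points in progenitors, 87.7 in mature EEs and 76.2 in ECs. The abd-A promoter region stood at 71.1 points in progenitors, and the abd-A locus had an EE peak at 84.4 points and no EC peak. Gsc stood at 9.44 points in progenitors and 87.7 in mature EEs. Ubx and Abd-B were matched, at 99.99 and 99.1 points and, for the main Abd-B region, at 99.4 and 99.9 points. How the sorted cells were spread over the regions of the gut is not given in the sources used here, and its part was not tested.

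Markers of other tissues were read the same way. The 7 genes of visceral muscle had 18 peaks in progenitors, 12 in Pros-depleted EEs, 12 in mature EEs and 24 in ECs, with 6 progenitor-only regions (at Mef2, how and bt) and 0 Pros-depleted-only ones. Among these genes Act57B had no peak in progenitors or in either EE library, and Mhc had 1 in each, at 28.6 points in progenitors and 28.5 in Pros-depleted EEs. Other members ranked high, with best ranks of 99.6 and 90.9 points at Mef2 and 56.3 and 96.5 at Prm. The 3 tracheal genes had 2 peaks in progenitors and 3 in Pros-depleted EEs. The best ranks were 96.4 and 98.6 points at trh and 82.0 and 89.4 at vvl, and btl had no peak in either. The 6 hemocyte genes had 9 and 8. The best ranks were 83.7 and 75.6 points at crq and 74.3 and 75.7 at srp, and eater had no peak. The part of such cells in the progenitor-only regions was not tested.

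Among all loci, those with the most progenitor-only regions were jing with 10, CG43759 and kirre with 9 each, Tet with 8 and CG12535 with 7. Those with the most Pros-depleted-only regions were mtd with 9, and CG33144, SNF4Agamma, shot and pros with 6 each, the last with the limit of the transgene given above. All 10 had shared regions too, from 3 to 12, and all 10 were long, from 58656 to 394149 bp. The adhesion gene kirre is the longest of them.

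Words of known factors were counted within 150 bp of the summit, on both strands. The GATA word GATAAG was present at 35.5% (33.2 to 37.8) of Pros-depleted-only regions, 20.9% (19.4 to 22.5) of progenitor-only regions and 27.6% (26.5 to 28.7) of shared ones, against 27.2% of all merged regions. The word CAGGTG, read by Snail-family factors such as Esg, was present at 15.6% (14.0 to 17.4), 8.50% (7.48 to 9.64) and 10.4% (9.64 to 11.1), against 10.7% of all. The AP-1 word TGACTCA was present at 7.00% (5.88 to 8.32), 4.01% (3.32 to 4.84) and 5.57% (5.04 to 6.15), against 5.42% of all. The POU word ATGCAAAT went the other way, with 3.205% (2.46 to 4.16) of Pros-depleted-only, 6.55% (5.65 to 7.57) of progenitor-only and 2.97% (2.59 to 3.41) of shared regions, against 3.85% of all. The order of the 2 unshared classes was the same for these 4 words among regions over 500 bp from a TSS. There GATAAG was at 36.2%, 22.5% and, in shared regions, 37.3%, and TGACTCA at 8.17%, 4.87% and 7.80%. The word TATCGATA (DRE), common at promoters, was present at 1.25% (0.817 to 1.90) of Pros-depleted-only, 4.83% (4.07 to 5.73) of progenitor-only and 5.77% (5.23 to 6.35) of shared regions, against 4.85% of all. Among distal regions it was at 0.890%, 0.913% and 1.03%. The median GC content around the summit was 45.2% in Pros-depleted-only, 42.9% in progenitor-only and 43.9% in shared regions. A match is a description of the sequence and not a bound site. The words CAGCTG (E-box), GTGGGAA (Su(H)), TTCNNNGAA (Stat92E), GAGAG (GAGA factor), TGTTTAC (forkhead), AACAAT (Sox), GGAATG (Scalloped) and CACGTG (Myc and Clk) were counted too. Of these, GAGAG was at 33.2% (31.4 to 35.0) of progenitor-only regions against 39.8% of all, and the others lay within 4 percentage points of the share of all regions in every class.

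**Figure D5:**
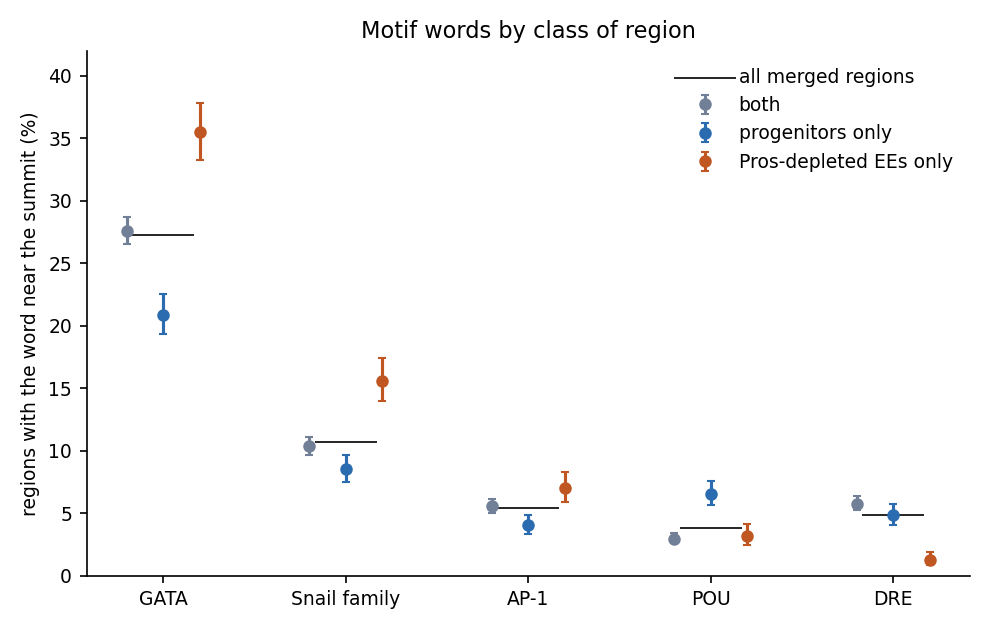
Share of regions (%) with a word of the GATA, Snail family, AP-1, POU or DRE factors within 150 bp of the summit, for shared, progenitor-only and Pros-depleted-only regions, with 95% Wilson intervals. Black lines give the share over all merged regions. The GATA share is 35.5% in Pros-depleted-only and 20.9% in progenitor-only regions.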

How the data were processed

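ATAC-seq peak lists of progenitors, Pros-depleted EEs, mature EEs and ECs were used, 1 library each. Per the study's methods, Cutadapt removed adapters, Bowtie2 (2.2.4 in the submitters' processing notes, another version in the methods) aligned the reads to BDGP6, duplicates and multimapped reads were dropped, and MACS3 called peaks per sample. The MACS3 settings are not given in the sources used here. The fold enrichment of each peak, a ratio over its local background, was deposited by the authors. Its -log10 p and -log10 q were also computed by the authors, and the lists give summit offsets. The depth in reads is unknown. Fragments at summits were obtained by inverting MACS's Poisson score, which gave a solution for 100% of peaks and was tested on simulated data.

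Peaks on 6 arms were kept (9311 in progenitors and 8466 in Pros-depleted EEs, leaving out 29 and 60), merged and ranked by fold. Overlap was at least 1 bp. The rank, region and locus definitions are given with the results. TSSs and loci came from Ensembl release 115, and sequences from the BDGP6 reference. The peak list of Ttk-depleted ECs and the RNA-seq were not used here. The members and gene lists were chosen with earlier results of these data known. Named genes were up to 4 examples per outcome in list order, or the nearest genes of the leading regions of each class, and loci with the most unshared regions. One leading region is not reported here. Genes outside the rule, among them heca, promL and trol, were chosen after their values were seen, and so were the single regions described within a locus and list members described beyond those 4. Alternatives were q thresholds, equal numbers of peaks, other overlaps, merging within 250 bp, all sequences, ranks of -log10 p and TSS windows of 3 kb. The scripts ran under Python 3.11.15 with SciPy 1.17.1, pandas 2.3.3, numpy 2.4.6 and, for plots, matplotlib 3.10.9.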

Additional observations from a re-analysis of the deposited data

Results flagged for a closer look

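Outside the 6 arms, the Pros-depleted list held 4 peaks on chromosome Y and the progenitor list 0, although both samples came from females per the methods. Of these peaks, 3 lay together between 955875 and 957995, with folds of 5.14, 7.31 and 3.20, and the other ran from 2637488 to 2637834 with a fold of 2.86. Mature EEs had 4 such peaks and ECs 7. They enter no result of the comparison.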

How the results depend on the processing

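At a minimum -log10 q of 5, the overlapping share was 68.5% of progenitor peaks and 83.8% of Pros-depleted peaks, r was 0.59, and 68.4% of Pros-depleted-only regions had an EE peak. At a minimum of 10, which left 7679 progenitor and 5339 Pros-depleted peaks, these values were 59.9%, 85.8%, 0.59 and 69.6%. The share of regions in both was then 54.1%, that of progenitor-only regions with an EE peak 21.7%, and 1161 loci had a Pros-depleted-only region, against 2327. When each list was cut to its 4000 strongest peaks, 69.4% of progenitor and 69.7% of Pros-depleted peaks overlapped. Lists of equal length give nearly equal shares in both directions whatever they hold, so this likeness carries no information on the full lists. The share in both was 53.2%, r 0.51, the progenitor-only share with an EE peak 18.8%, and 1960 loci had a progenitor-only region, against 3627. With 2074 loci that had a Pros-depleted-only region, against 2327, the order of these counts was then the reverse of that in the full lists. Where 50% of both peaks had to overlap, the shares were 59.5% and 65.4%, and with the summit inside the other peak 70.2% and 77.9%. The other 18 values stayed inside the main interval, or within 1.5 times the main count. Under each of the 4 alternatives run for it, EE peaks were more common at Pros-depleted-only than at progenitor-only regions. No paired analysis was possible because each population had 1 library, and leaving out a library leaves nothing to compare. Depth limits the weak regions most, and the Pros-depleted library was the shallower one.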

Other observations

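Chromosome 4, a small arm rich in heterochromatin, held 113 merged regions, of which 68 were shared, 38 were found in progenitors only (33.6%, 25.6 to 42.7) and 7 in Pros-depleted EEs only (6.19%, 3.03 to 12.2). On the 5 larger arms the progenitor-only share ran from 21.3% on 2R to 25.4% on 2L, and the Pros-depleted-only share from 15.3% to 15.9%. Of the 4 listed genes on this arm, bt had 2 progenitor-only regions, at 44.7 and 74.5 points, and the secretion gene Cadps had 4 progenitor-only regions beside 1 shared region. The neuronal gene onecut had 2 shared regions and none unshared, and zfh2 had 3 shared, 1 progenitor-only and 2 Pros-depleted-only regions.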
